A study of Saccharomyces cerevisiae with 24 samples.

Results

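The genes described here encode the steps that let budding yeast build sugar from carbon sources with only a few carbon atoms. They are *PCK1*, *FBP1*, *ICL1*, *ICL2*, *MLS1*, *MDH2*, *SFC1* and *JEN1*, and they were taken by name, 8 of the 6692 annotated ORFs in the table of counts. All 8 had enough counts to be tested in every comparison. They were measured by mRNA-seq in 24 libraries, 4 for each of 3 *Saccharomyces cerevisiae* strains in each of 2 media. The medium YPD holds glucose and is fermentative, and YPEG holds ethanol and glycerol and is oxidative. The WT strain is a haploid MATa strain of the BY4741 (S288C) background with a restored *HHT2* gene. H3L126M and H3L126H carry methionine or histidine in place of leucine 126 of histone H3, introduced with CRISPR-Cas9 into both H3 genes, *HHT1* and *HHT2*. All strains share his3Δ1 leu2Δ0 met15Δ0 ura3Δ0, and cells were grown at one temperature in rich medium. Each mutant is 1 strain, so the substitution and any other difference of that strain cannot be told apart. The study addressed the part of H3 leucine 126 in the copper reductase activity of the nucleosome, and used mRNA-seq to see whether expression differed between the strains.

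Yeast cells growing on ethanol make acetyl-CoA, which reaches sugar synthesis only through the glyoxylate cycle. Isocitrate lyase (*ICL1*) splits isocitrate into succinate and glyoxylate, malate synthase (*MLS1*) joins glyoxylate to a further acetyl-CoA, and the cytosolic malate dehydrogenase (*MDH2*) oxidizes the malate to oxaloacetate. The mitochondrial carrier encoded by *SFC1* exchanges succinate for fumarate between cytosol and mitochondrion. Phosphoenolpyruvate carboxykinase (*PCK1*) then commits oxaloacetate to gluconeogenesis, and fructose-1,6-bisphosphatase (*FBP1*) reverses the other irreversible step of glycolysis on the way to glucose 6-phosphate. *JEN1* encodes the plasma membrane importer of lactate and pyruvate. *ICL2*, named for its likeness to *ICL1*, encodes a mitochondrial enzyme that cleaves 2-methylisocitrate in propionate breakdown and does not serve the glyoxylate cycle. In glucose these genes are held down by glucose repression, which the Snf1 kinase relieves when glucose is gone. The zinc cluster activators Cat8 and Sip4 bind carbon source-responsive elements (CSRE) upstream of many of them.

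The 8 genes are spread over 7 chromosomes of the R64 (sacCer3) build. *PCK1* (YKR097W) lies on chromosome XI at 631152-632801 and *JEN1* (YKL217W) at the other end of the same chromosome at 22234-24084. *FBP1* (YLR377C) lies on chromosome XII at 873746-874792, *ICL1* (YER065C) on V at 285241-286914, *MLS1* (YNL117W) on XIV at 406358-408022 and *MDH2* (YOL126C) on XV at 81787-82920. *SFC1* (YJR095W) lies on chromosome X at 609773-610741 and *ICL2* (YPR006C) on XVI at 567269-568996. Each is a single coding exon, none overlaps another annotated ORF, and 100% of the 50-base windows of each occur once in the genome. Their counts are therefore not shared with a near-identical copy, and the same holds for *DAL7*, the paralog of *MLS1*.

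The CSRE consensus was searched on both strands in the 800 bases before each start codon of the reference genome, a window that can reach into a neighboring gene. It was found 7 times, upstream of *PCK1*, *ICL1*, *MLS1* and *MDH2*. These genes are among the 40 of 5997 ORFs with such a window that hold a match (0.667%). The letters are known from this pathway, so this share is given for scale and is not a test. The matches are shown because they are the best known regulatory letters of this pathway. Each is printed 5′ to 3′ as 30 bases with the 12 letters of the match in capitals, and the position of the match from the A of the start codon is given after the gene name.

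*PCK1*, -482 to -471, chrXI:630661-630690, plus strand: aaccgagctTCCTTTCATCCGgcgcggctg

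*ICL1*, -399 to -388, chrV:287293-287322, minus strand: ccccaggttTCCATTCATCCGagcgatcac

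*MLS1*, -531 to -520, chrXIV:405818-405847, minus strand: atggggattTCCATTGAGCCGatagcaatg

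*MLS1*, -501 to -490, chrXIV:405848-405877, plus strand: atcatagctTCCATTGGGCCGatgaagtta

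*MDH2*, -433 to -422, chrXV:83333-83362, plus strand: gatgatgagTCCATTTGGCCGgggaaggcc

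*MDH2*, -401 to -390, chrXV:83301-83330, minus strand: cgatacggcCCCTTTAATCCGcaattactt

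*MDH2*, -378 to -367, chrXV:83278-83307, minus strand: attactttgCCCATTCGGCCGtagccgttc

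*MLS1* holds a pair of elements on opposite strands, and *MDH2* holds 3. The windows of *FBP1*, *ICL2*, *SFC1* and *JEN1* hold no match to these letters, from which nothing follows about the factors. The core of the Mig1 repressor site, GCGGGG on either strand, was found in the windows of *JEN1* (-660 to -655) and *ICL2* (-245 to -240), against 537 of 5997 windows in all (8.95%).

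**Figure D1:**
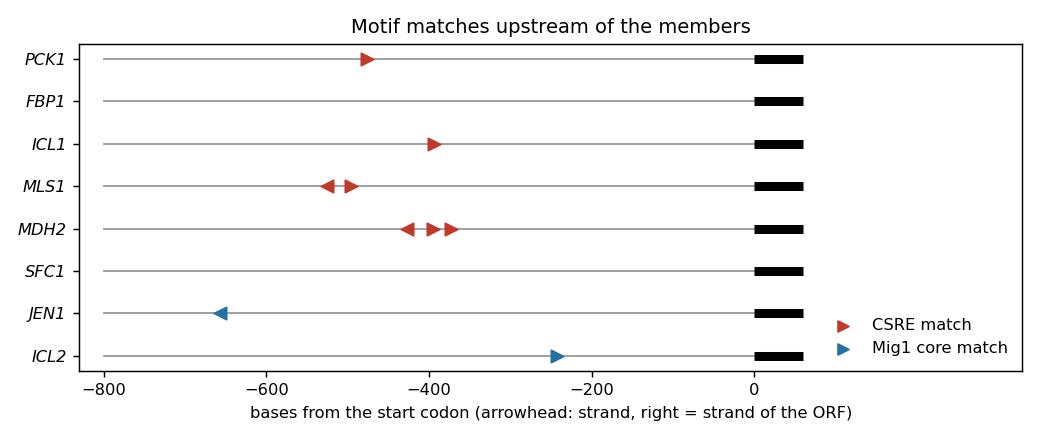
Matches to the CSRE consensus (red) and to the Mig1 core (blue) in the 800 bases upstream of the 8 genes, with the distance from the start codon in bases on the x axis. Arrowheads give the strand, the black bars mark the start of the ORF, and the 7 CSRE matches sit upstream of *PCK1*, *ICL1*, *MLS1* and *MDH2*.

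Total counts ranged from 8570789 to 15577958 per library. Levels are given as CPM, the counts relative to library size on the TMM scale of all 24 libraries. The deleted markers *URA3* and *MET17* had 0 counts in every library and *LEU2* at most 1, and the MATa genes *MFA1*, *MFA2* and *STE2* had 150 to 2224, 573 to 4414 and 622 to 8792 counts. The MATalpha genes *MF(ALPHA)1*, *MF(ALPHA)2* and *STE3* had 0 to 381, 29 to 118 and 39 to 245 counts, so that the ranges of the mating types partly overlap over the libraries. In H3L126H, genes of chromosomes II, III, V and XVI stood above WT as a whole, with medians of 0.21 to 0.42 in YPD and 0.20 to 0.41 in YPEG on the log2 scale, while the other chromosomes lay between -0.17 and 0.06. *ICL1* is on chromosome V and *ICL2* on XVI. Their values for H3L126H against either other strain within a medium are given below also with the chromosome median subtracted. The same is given for *PCK1*, *FBP1*, *MLS1*, *MDH2* and *JEN1* in H3L126H in YPEG, where their chromosomes had medians of -0.14 to -0.08. RNA came from 4 replicate experiments per group, and p values measure the spread between them. In bulk RNA, fewer expressing cells and less RNA per cell cannot be told apart.

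Of the 8 genes, all rose from YPD to YPEG in all 3 strains, where 34.3% of 6082 genes rose in WT, 33.4% in H3L126M and 36.6% in H3L126H (edgeR, adjusted p below 0.05). Their summed share of all counts went from 0.0196% ± 0.00138 (SD, n = 4) to 1.11% ± 0.106 in WT, from 0.0209% to 2.46% in H3L126M and from 0.0207% to 0.756% in H3L126H. In WT, *SFC1*, *PCK1* and *MLS1* had the 3 largest rises of all genes tested.

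In WT, *PCK1* had 6.59, 7.18, 6.98 and 3.23 CPM in the 4 YPD libraries and 2415, 2447, 2159.8 and 2491 CPM in the YPEG libraries. Its log2 fold change was 8.63 (SE 0.29 and edgeR adjusted p = 9.23e-18). *FBP1* went from 5.96 to 8.34 CPM in YPD up to 969 to 1234 CPM in YPEG, a log2 fold change of 7.29 (SE 0.24). Both irreversible steps toward glucose thus had very low levels in glucose. *SFC1* went from 1.31 to 3.44 CPM in YPD up to 842 to 978 CPM, a log2 fold change of 8.78 (SE 0.26). Of the enzymes of the cycle, *MLS1* rose by 8.07 (SE 0.23) and *ICL1* by 5.59 (SE 0.13). *JEN1* rose by 6.26 (SE 0.23).

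*MDH2* and *ICL2* responded least. In WT *MDH2* had 126, 108, 139 and 137 CPM in YPD and 266, 343, 227 and 246 CPM in YPEG, and its log2 fold change was 1.08 (SE 0.14 and edgeR adjusted p = 3.56e-07). Unlike the others, *MDH2* had 82.9 CPM or more in every glucose library of the 3 strains. *ICL2* rose by 2.81 (SE 0.14), from 16.5 to 24 CPM up to 107 to 187 CPM. *DAL7*, the malate synthase paralog known for allantoin breakdown, had a log2 fold change of 0.68 (SE 0.10).

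Per kilobase of coding length, the order of the genes also differed between media. In WT in YPD the mean level was 113 RPKM for *MDH2*, 23.3 RPKM for *ICL1*, 11.4 RPKM for *ICL2*, 11.1 RPKM for *JEN1*, 6.70 RPKM for *FBP1*, 4.05 RPKM for *MLS1*, 3.63 RPKM for *PCK1* and 2.13 RPKM for *SFC1*. Libraries of *ICL2*, *JEN1* and *FBP1* overlapped from each to the next in this order, as did those of *MLS1*, *PCK1* and *SFC1*. In YPEG *PCK1* led with 1441 RPKM ± 90.3 (SD, n = 4). *ICL1* (1126 RPKM), *MLS1* (1087 RPKM), *FBP1* (1051 RPKM), *SFC1* (944 RPKM) and *JEN1* (849 RPKM) overlapped each with the next. *MDH2* (239 RPKM) and *ICL2* (79.5 RPKM) came last without overlap. *PCK1* stayed first in YPEG in both mutants, at 4851 RPKM in H3L126M and 957 RPKM in H3L126H, where its libraries overlapped those of *ICL1* (859 RPKM).

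**Figure D2:**
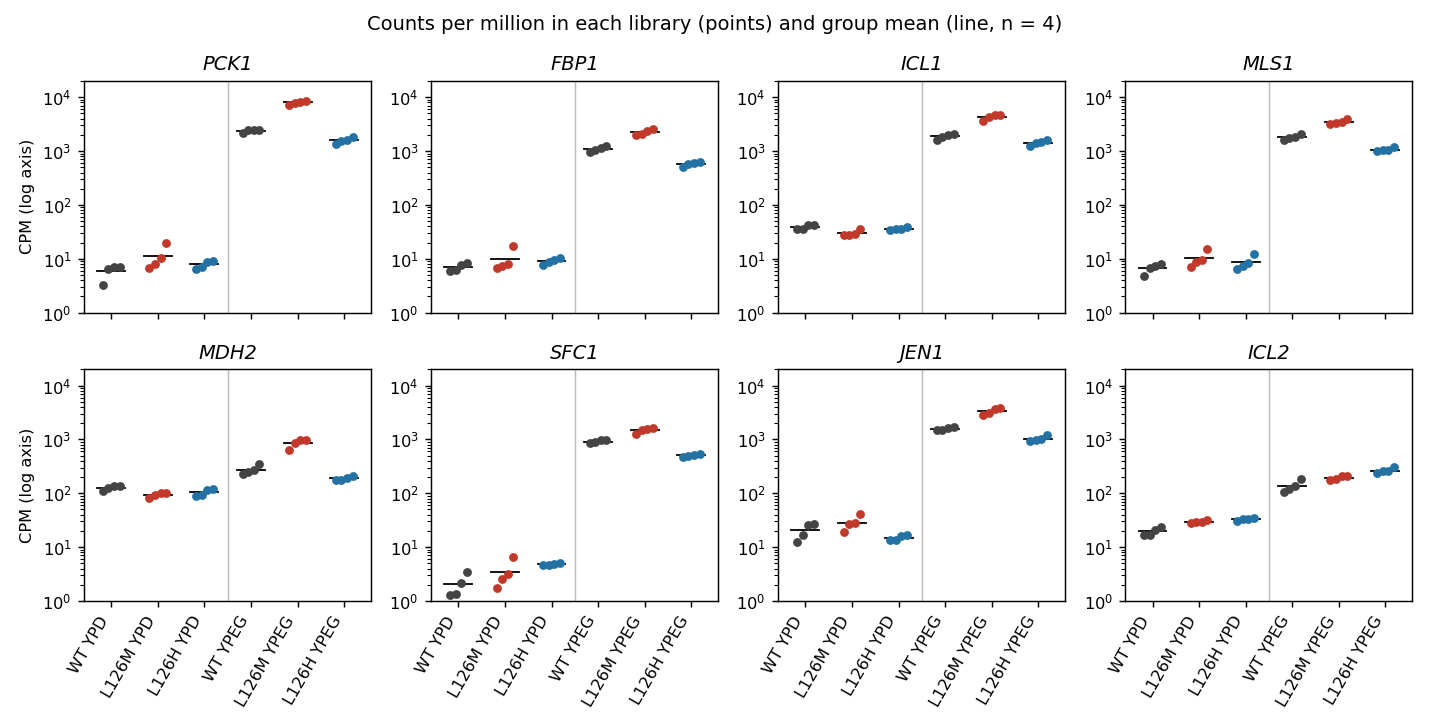
CPM on a log axis for each gene, with 1 point per library and a line at the mean of the 4 libraries, for WT (grey), H3L126M (red) and H3L126H (blue) in YPD (left of the line) and YPEG (right). In YPEG the red points lie above and the blue points below the grey ones for every gene except *ICL2*, for which the blue points are highest.

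In YPEG all 8 genes were higher in H3L126M than in WT, where 36.2% of 6022 genes were called and 17.1% were called higher (edgeR). For 5 of them the rise was at least 2-fold, which 3.04% of the genes tested reached. The median log2 fold change of the 8 was 1.08, beside 0.0072 over all genes. For 7 of the 8, all 4 H3L126M libraries lay above all 4 WT libraries, where 12.8% of genes did so.

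The gluconeogenic enzymes come first. *PCK1* had 2415, 2447, 2159.8 and 2491 CPM in WT and 8259, 7961, 8530.1 and 7267 CPM in H3L126M. This 3.4-fold rise had a log2 fold change of 1.76 (SE 0.13 and edgeR adjusted p = 5.75e-07), which 0.548% of genes exceeded. *FBP1* had 1162, 1234, 969 and 1036 CPM in WT and 2590.3, 2112, 2398 and 2020.2 CPM in H3L126M. The groups were well separated, with a log2 fold change of 1.06 (SE 0.12 and edgeR adjusted p = 2.78e-05).

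In the glyoxylate cycle, *MDH2* changed most. It had 266, 343, 227 and 246 CPM in WT and 967, 983, 843 and 627 CPM in H3L126M, a 3.19-fold rise (log2 fold change 1.67, SE 0.15 and edgeR adjusted p = 3.60e-06). *ICL1* had 1857, 2083, 1631 and 1972 CPM in WT and 4725, 4208, 4639.7 and 3592 CPM in H3L126M. Its lowest mutant library was far above the highest WT library, and the log2 fold change was 1.20 (SE 0.13). *MLS1* went from 1809 CPM ± 188 (SD, n = 4) to 3468 CPM ± 298, a log2 fold change of 0.95 (SE 0.12).

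The transporters rose by less or by a like amount. *JEN1* had 1478, 1523, 1615 and 1669.6 CPM in WT and 3799.9, 3621, 3090.5 and 2876 CPM in H3L126M, a log2 fold change of 1.10 (SE 0.12). *SFC1* had 879, 978, 842 and 959.8 CPM in WT and 1615, 1571, 1513 and 1264 CPM in H3L126M, a log2 fold change of 0.72 (SE 0.10). *ICL2*, outside the cycle, had 118, 107, 137 and 187 CPM in WT and 179, 185, 205 and 206 CPM in H3L126M. Here the groups overlapped through the fourth WT library, and the log2 fold change was 0.51 (SE 0.15 and edgeR adjusted p = 0.0152).

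In YPEG 7 of the 8 genes were lower in H3L126H than in WT and *ICL2* was higher, where 36.4% of genes were called, 17.7% lower and 18.7% higher. The median log2 fold change of the 8 was -0.60, beside -0.0041 over all genes, and none of the 8 fell 2-fold, as 0.448% of genes did. All 4 H3L126H libraries lay below all 4 WT libraries for the 7 genes, as for 16.0% of genes tested. This comparison shares its WT libraries with that of H3L126M, so the values of the 2 mutants are not independent.

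*FBP1* fell most of the 8, from 1162, 1234, 969 and 1036 CPM in WT to 496, 612, 624 and 586 CPM in H3L126H. Its log2 fold change was -0.93 (SE 0.12 and edgeR adjusted p = 1.06e-04), with 0.548% of genes falling further. *SFC1* had 520.2, 489.7, 531 and 473 CPM in H3L126H, against at least 842 CPM in every WT library, a log2 fold change of -0.86 (SE 0.10). *MLS1* had 1059.6, 990.0, 1192 and 1034 CPM in H3L126H and 1626, 1736, 1807 and 2069 CPM in WT, a log2 fold change of -0.76 (SE 0.12). The libraries of these 3 genes were clearly apart between the strains.

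*PCK1* had 1335, 1544, 1828 and 1608 CPM in H3L126H, a log2 fold change of -0.59 (SE 0.13 and edgeR adjusted p = 0.00266). *JEN1* had 967, 953, 1029 and 1199 CPM, a log2 fold change of -0.60 (SE 0.12). *MDH2* had 173, 209.7, 196 and 175 CPM, a log2 fold change of -0.52 (SE 0.15 and edgeR adjusted p = 0.0130). In each of the 3 the highest H3L126H library stayed below the lowest WT library. With the chromosome median subtracted the falls were smaller, at -0.48 for *PCK1*, -0.49 for *JEN1* and -0.39 for *MDH2*. Those of *FBP1* and *MLS1* became -0.84 and -0.66.

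*ICL1* and *ICL2* lie on chromosomes that stood above WT in H3L126H. *ICL1* had 1439, 1490.2, 1584 and 1238 CPM in H3L126H, a log2 fold change of -0.39 (SE 0.13 and edgeR adjusted p = 0.0265), which became -0.59 with the chromosome V median subtracted. The call was lost without WT library 2, H3L126H library 1 or H3L126H library 4 (edgeR adjusted p = 0.0673, 0.0597 and 0.0858). *ICL2* had 254, 256, 304 and 235 CPM in H3L126H, all above the WT libraries, a log2 fold change of 0.93 (SE 0.15 and edgeR adjusted p = 4.10e-04). With the chromosome XVI median subtracted it was 0.55. The part of the chromosome in these differences was not tested.

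**Figure D3:**
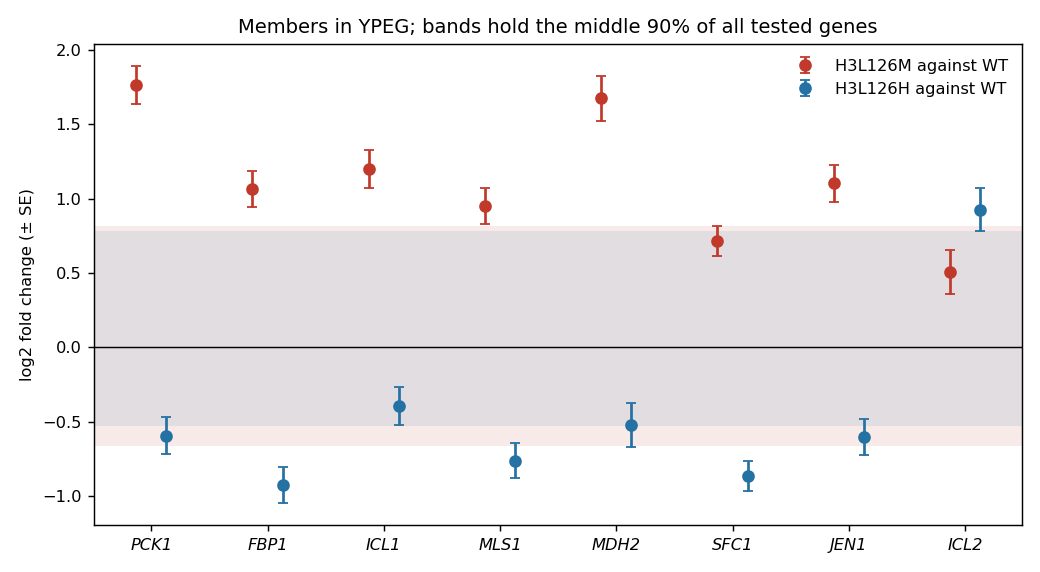
Log2 fold change (± SE) of each gene against WT in YPEG for H3L126M (red) and H3L126H (blue), with shaded bands holding the middle 90% of all genes tested. The red points of 6 genes lie above the bands, those of *SFC1* (0.72) and *ICL2* (0.51) lie within them, and the blue points are negative except that of *ICL2* (0.93).

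The mutants were also compared directly, with WT libraries entering only the gene filter, the scaling and the estimate of spread. In YPEG 7 of the 8 genes were higher in H3L126M than in H3L126H, each by at least 2-fold, and *ICL2* was lower. Over all genes 19.4% were called higher, 21.2% were called lower, and 1.81% were called at least 2-fold higher. *PCK1* differed 5.12-fold (log2 fold change 2.36, SE 0.13 and edgeR adjusted p = 4.48e-08), the second largest rise of 6022 genes. *MDH2* differed by 2.20 (SE 0.15) and *FBP1* by 1.99 (SE 0.12) on the log2 scale, at ranks 4 and 7. The values were 1.71 for *MLS1*, 1.71 for *JEN1*, 1.59 for *ICL1* and 1.58 for *SFC1*, at ranks 16 to 27. With the chromosome median subtracted *ICL1* had 1.81. *ICL2* had -0.42 (SE 0.15 and edgeR adjusted p = 0.0325) and -0.04 with the chromosome median subtracted. Its call was lost without any 1 of 5 libraries, H3L126M libraries 1 and 2 and H3L126H libraries 1, 2 and 3 (edgeR adjusted p from 0.0529 to 0.103).

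In YPD few of the genes were called between strains, and several had low counts. Against WT the 8 had a median of 0.56 in H3L126M and 0.41 in H3L126H on the log2 scale. Over all genes the medians were 0.0054 and 0.0126. In H3L126M *PCK1* (0.92), *SFC1* (0.80), *MLS1* (0.61), *FBP1* (0.52) and *JEN1* (0.51) were above WT without being called. Against WT, 3 of the 8 were called in H3L126M, 1 higher and 2 lower, where 14.6% of 5976 genes were called, 7.83% higher and 6.74% lower. *ICL2* rose from 24, 21.2, 16.8 and 16.5 CPM to 29.8, 28.3, 32.3 and 28.7 CPM, without overlap (log2 fold change 0.62, SE 0.12 and edgeR adjusted p = 0.00363). The genes with the highest levels in glucose went the other way. *MDH2* fell by 0.41 on the log2 scale (82.9 to 101 CPM beside 108 to 139 CPM in WT), and *ICL1* fell by 0.36 (27.4 to 35.3 CPM beside 35.9 to 42.7 CPM). Those falls were small (edgeR adjusted p = 0.0285 and 0.0284), and each call was lost when any of several single libraries was left out. For *ICL1* these were WT library 3 and H3L126M libraries 1, 2 and 4 (edgeR adjusted p from 0.0602 to 0.0871), and for *MDH2* WT library 3 and H3L126M libraries 2 and 3 (0.0620 to 0.0827).

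In H3L126H in YPD, *ICL2* and *SFC1* were called higher, 2 of the 8 genes, where 44.6% of genes were called and 24.5% called higher. *ICL2* had 31.2, 34.9, 33.9 and 33.5 CPM, a log2 fold change of 0.81 (SE 0.12) and of 0.40 with the chromosome median subtracted. *SFC1* had 4.70, 5.14, 4.74 and 4.80 CPM against 1.36, 1.31, 3.44 and 2.12 CPM in WT, without overlap. Its log2 fold change was 1.27 (SE 0.38 and edgeR adjusted p = 0.0155), at counts of only 13 to 75 per YPD library. With the mutants compared directly in YPD, 2 of the 8 genes were called, where 35.7% of genes were called, 16.2% higher and 19.4% lower in H3L126M. *JEN1* was higher in H3L126M (log2 fold change 0.91, SE 0.26 and edgeR adjusted p = 0.0143). *ICL1* was lower there (-0.29, SE 0.10, edgeR adjusted p = 0.0385), with -0.008 after subtracting the chromosome median. The call for *ICL1* was lost without any 1 of 6 libraries, H3L126M libraries 1, 2 and 4 and H3L126H libraries 1, 2 and 4, with edgeR adjusted p from 0.0650 to 0.107.

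A single library stood apart in glucose. In H3L126M library 3 was the highest of its group for 7 of the 8 genes, with 19.6 CPM of *PCK1* beside 6.76, 10.5 and 7.86 CPM, and 17.5 CPM of *FBP1* beside 7.28, 6.73 and 7.94 CPM. Over all genes tested it was highest for 23.4%. Of 8 genes known to rise when glucose runs low, it was also highest for 6. Among them were the hexose transporter gene *HXT6*, with 103 CPM beside 26.6 to 74.0 CPM, and the hexokinase gene *HXK1*, with 839 CPM beside 466 to 712 CPM. *HXT7*, a near-identical neighbor of *HXT6*, was counted as well. So was *HXT5*, at 23.84 CPM beside 19.32 to 23.82 CPM. *ADH2* (49.3 beside 35.3 to 49.5 CPM) and *REG2* (9.34 beside 5.28 to 10.28 CPM) were not highest there. The part of this library in the YPD values is seen when it is left out. The log2 fold change of *PCK1* against WT was 0.92 with it and 0.49 without it, and neither was called (edgeR adjusted p = 0.0791 and 0.249). In WT in YPD, *JEN1* had 27.0 and 25.5 CPM in libraries 1 and 2 and 17.0 and 12.4 CPM in libraries 3 and 4. *CAT8* divided the same libraries, with 46.1 and 37.1 CPM against 17.9 and 15.2 CPM, and so did *ADR1*, with 109 and 87.2 CPM against 42.0 and 25.2 CPM. *ICL2* divided them the same way. *ICL1*, *MDH2* and *SFC1* divided them the opposite way, with 126 and 108 CPM of *MDH2* against 139 and 137 CPM. *PCK1*, *FBP1* and *MLS1* did not divide them. The share of all genes that divided these libraries was not counted.

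Whether a strain changed the response to the medium was tested as the interaction of strain and medium. In H3L126M 2 of the 8 genes were called, both upward, where 24.7% of genes were called and 11.1% upward. *MDH2* rose 9.03-fold in H3L126M and 2.12-fold in WT, an interaction of 2.09 on the log2 scale (SE 0.20 and edgeR adjusted p = 3.80e-07). *ICL1* rose 142.8-fold in H3L126M and 48.2-fold in WT, an interaction of 1.57 (SE 0.16 and edgeR adjusted p = 5.44e-07). Both genes were lower in H3L126M in glucose and higher in ethanol and glycerol. The interaction of *PCK1* was 0.85 (SE 0.33 and edgeR adjusted p = 0.0588). Without H3L126M YPD library 3 the interaction was called for 5 genes, with 1.27 for *PCK1*, 0.97 for *FBP1* and 0.81 for *JEN1* added. Without WT YPD library 4 it was called for 4 genes, with *PCK1* and *JEN1* added.

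In H3L126H 4 of the 8 interactions were called, all downward, where 19.4% of genes were called and 9.27% downward. The response of *SFC1* was 439.6-fold in WT and 103.8-fold in H3L126H, an interaction of -2.08 (SE 0.34 and edgeR adjusted p = 3.03e-04). It joins a log2 fold change against WT of 1.27 in YPD to one of -0.86 in YPEG. The larger part, in YPD, rests on 13 to 36 counts per WT library. *FBP1* had -1.31 (SE 0.29), *MLS1* -1.10 (SE 0.27) and *PCK1* -0.997 (SE 0.33 and edgeR adjusted p = 0.0388). The call of *PCK1* was lost when any 1 of 9 libraries was left out (edgeR adjusted p from 0.0503 to 0.0833), among H3L126H YPD libraries 1, 2 and 4, WT YPEG libraries 2, 3 and 4 and H3L126H YPEG libraries 1, 2 and 4. *ICL1*, *MDH2* and *JEN1* had interactions of -0.27, -0.23 and -0.16, and none of them was called.

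**Figure D4:**
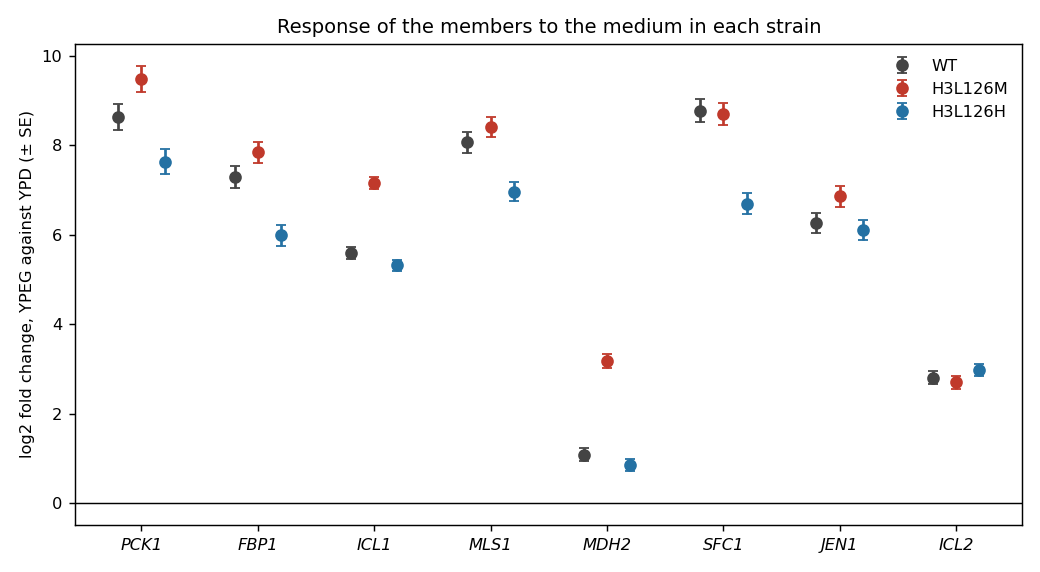
Log2 fold change (± SE) from YPD to YPEG for each gene in WT (grey), H3L126M (red) and H3L126H (blue). All values are above 0, those of *MDH2* and *ICL2* are the smallest, and the red point of *MDH2* (3.18) stands away from the grey (1.08) and blue (0.85) points.

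Across the 12 YPEG libraries the 7 genes other than *ICL2* moved together. Pearson's r of log2 CPM was between 0.93 and 0.99 for their 21 pairs and between -0.42 and -0.13 for the 7 pairs with *ICL2*. After removal of the mean of each strain, the 21 pairs had r of -0.19 to 0.87. The points share strain and library, so these are descriptions. Each of *PCK1*, *ICL1*, *MDH2* and *SFC1* was most like another of the 8 genes, *PCK1* like *ICL1* (r = 0.987), *ICL1* and *MDH2* like each other (0.988) and *SFC1* like *FBP1* (0.981). Among the genes outside the 8, which the following values are limited to, the one most like *PCK1* over the same libraries was *HEM15* (r = 0.985), which encodes ferrochelatase, followed by *RNR4* (0.979), which encodes a ribonucleotide reductase subunit, and *EHD3* (0.972). *HEM15* and *RNR4* were also first and second outside the 8 for *ICL1* (0.984 and 0.976). Outside the 8, the highest r was that of *EHD3* for *MDH2* (0.985), of *GDH2* for *FBP1* (0.983) and of *QCR7* and *IDP2* for *MLS1* (0.989 and 0.986). *SFC1* came closest to *QDR2* (0.979), *JEN1* to *GRH1* (0.980) and *ICL2* to *AVT6* (0.968).

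Beyond the 8 genes, lists of the pathway's surroundings were counted in YPEG. Some genes, among them *ADY2*, *ATO3*, *SIP4* and *IDP2*, are counted in another list too, so the lists are not independent. Each count below stands beside the share of all genes tested, of which 36.2% were called in H3L126M (17.1% higher). In H3L126H 36.4% were called, 18.7% higher and 17.7% lower. Between the mutants 19.4% were called higher and 21.2% lower in H3L126M. Of 16 other targets of Cat8 or the activator Adr1, 13 were higher and 0 lower in H3L126M, with a median log2 fold change of 0.80. The largest rise was that of *ADY2*, the acetate transporter gene (1.67, SE 0.20). In H3L126H 4 were higher and 4 lower, with a median of 0.13. *YAT2*, a carnitine acetyltransferase gene, had 0.98 and *ATO3*, named for ammonia export, had -1.02. From YPD to YPEG *ATO3* fell in each strain, by -1.41 in WT, -0.41 in H3L126M and -1.13 in H3L126H. *YAT2* lies on chromosome V, whose median in H3L126H was 0.20 against WT. At 13 of 16 in H3L126M and 8 of 16 in H3L126H, the counts stand beside 36.2% and 36.4% of all genes.

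Among 15 genes of anaplerosis and isozymes, H3L126M had 4 higher and 1 lower, with a median of 0.25. *CIT2*, the peroxisomal citrate synthase of the glyoxylate cycle, rose by 1.62 on the log2 scale (SE 0.35), and *MAE1*, the malic enzyme gene, fell by 1.17. H3L126H had 2 higher and 7 lower, with a median of -0.40. *CIT2* was 1 of the 2 that rose there too (1.48, SE 0.35 and edgeR adjusted p = 0.00505), against the direction of *ICL1*, *MLS1* and *MDH2* in that strain, and was not called between the mutants (0.15, SE 0.34 and edgeR adjusted p = 0.765). It lies on chromosome III, whose median in H3L126H was 0.27 against WT. *IDP2*, the cytosolic isocitrate dehydrogenase gene, had -0.75 (SE 0.10), and *CIT3* had 1.65 (SE 0.20). *CIT3* encodes a mitochondrial citrate and methylcitrate synthase, lies on chromosome XVI like *ICL2*, and stands with it in propionate breakdown. *PYC1*, a pyruvate carboxylase gene that supplies oxaloacetate, had 0.07 (SE 0.13) in H3L126M and -0.71 (SE 0.13 and edgeR adjusted p = 0.00108) in H3L126H. *DAL7* had 0.15 and 0.07 and was called in neither mutant.

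Of 12 carriers, 5 were higher and 3 lower in H3L126M (median 0.22), and 1 was higher and 3 lower in H3L126H (median -0.21). The mitochondrial oxaloacetate carrier gene *OAC1* had -0.66 in H3L126M. Of 10 genes of the steps that glycolysis and gluconeogenesis share, none was called in H3L126M, at a median of 0.33, and 1 rose in H3L126H, *PGI1* (0.47), at a median of -0.14. *PGI1* lies on chromosome II, whose median in H3L126H was 0.41 against WT. Between the mutants 2 of the 10 were higher in H3L126M and 0 lower, at a median of 0.31, with *TPI1* the highest (0.83). Of 10 genes of the opposing glycolytic steps and their regulation, 3 were higher and 2 lower in H3L126M and 2 and 2 in H3L126H. These counts include *FBP26*, which encodes a bisphosphatase and is not itself an opposing step. *FBP26* was called higher in both mutants, at 0.58 (SE 0.10) in H3L126M and 0.42 (SE 0.10) in H3L126H. The glucokinase gene *GLK1* was higher in both, at 0.81 (SE 0.25) and 0.80 (SE 0.25), and *HXK1* was lower in H3L126H (-0.90). *GLK1* lies on chromosome III, whose median in H3L126H was 0.27 against WT. *HXK2* was lower in both (-0.48 and -0.56), and *PFK27* was lowest in H3L126M (-0.69). Of the 8 genes known to rise when glucose runs low, 4 were higher and 2 lower in H3L126M, and 2 were higher and 5 lower in H3L126H. The lowest was *HXT6* in both, at -0.93 and -1.34, a gene whose reads can be divided with its near-identical neighbor *HXT7*, and *HXT5* had 1.27 in H3L126H. The part of these markers in the values of the 8 genes was not tested.

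Of 18 regulators, 4 were higher and 4 lower in H3L126M, and 0 were higher and 2 lower in H3L126H. Over all genes 36.2% and 36.4% were called. *CAT8* went from 182 CPM ± 21.3 (SD, n = 4) in WT to 221 CPM ± 22.7 in H3L126M, a log2 fold change of 0.29 (SE 0.10 and edgeR adjusted p = 0.0392), and had -0.03 in H3L126H. *SIP4*, itself a target of Cat8, went from 29.3 CPM ± 6.09 to 71.0 CPM ± 10.7 in H3L126M, a log2 fold change of 1.29 (SE 0.16 and edgeR adjusted p = 4.45e-05). In H3L126H it had 0.41 (SE 0.16 and edgeR adjusted p = 0.0537). *ADR1* had 0.54 (SE 0.11 and edgeR adjusted p = 0.00195) in H3L126M and -0.29 (SE 0.11 and edgeR adjusted p = 0.0563) in H3L126H. *MIG1*, the repressor gene, fell by 0.73 in H3L126M and had 0.10 in H3L126H. Between the mutants in YPEG *CAT8* differed by 0.32, *SIP4* by 0.88, *ADR1* by 0.83 and *MIG1* by -0.83 on the log2 scale, and all 4 were called.

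The GID ubiquitin ligase removes Fbp1, Icl1 and Mdh2 when glucose returns. Of 10 genes of the complex and its partners, 5 were higher and 1 lower in H3L126M, with *VID28* the highest (0.62). In H3L126H 3 were higher and 0 lower. Over all genes 36.2% and 36.4% were called. *VID24*, whose product Gid4 recognizes the N-terminal proline of Fbp1, Icl1 and Mdh2, was the 1 that was lower in H3L126M. In YPEG its log2 fold changes against WT had the opposite sign to those of the 7 genes other than *ICL2* in both mutants. There it had 70.6, 42.6, 56.4 and 88.5 CPM in WT, 23.0, 26.0, 23.8 and 25.5 CPM in H3L126M and 187, 151, 111 and 172 CPM in H3L126H. The 3 strains did not overlap. The log2 fold change was -1.38 (SE 0.20 and edgeR adjusted p = 1.70e-04) in H3L126M and 1.26 (SE 0.19 and edgeR adjusted p = 2.81e-04) in H3L126H, and -2.64 (SE 0.20) between the mutants. In YPD *VID24* was also higher in H3L126H than in WT (0.99, SE 0.10 and edgeR adjusted p = 1.04e-05). *FBP1*, *ICL1* and *MDH2* had 0.43, -0.07 and -0.24 there, and none was called. With the chromosome V median subtracted *ICL1* had -0.30. *VID24* lies on chromosome II, whose median in H3L126H was 0.41 against WT. These are mRNA levels, and the proteins were not measured here.

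**Figure D5:**
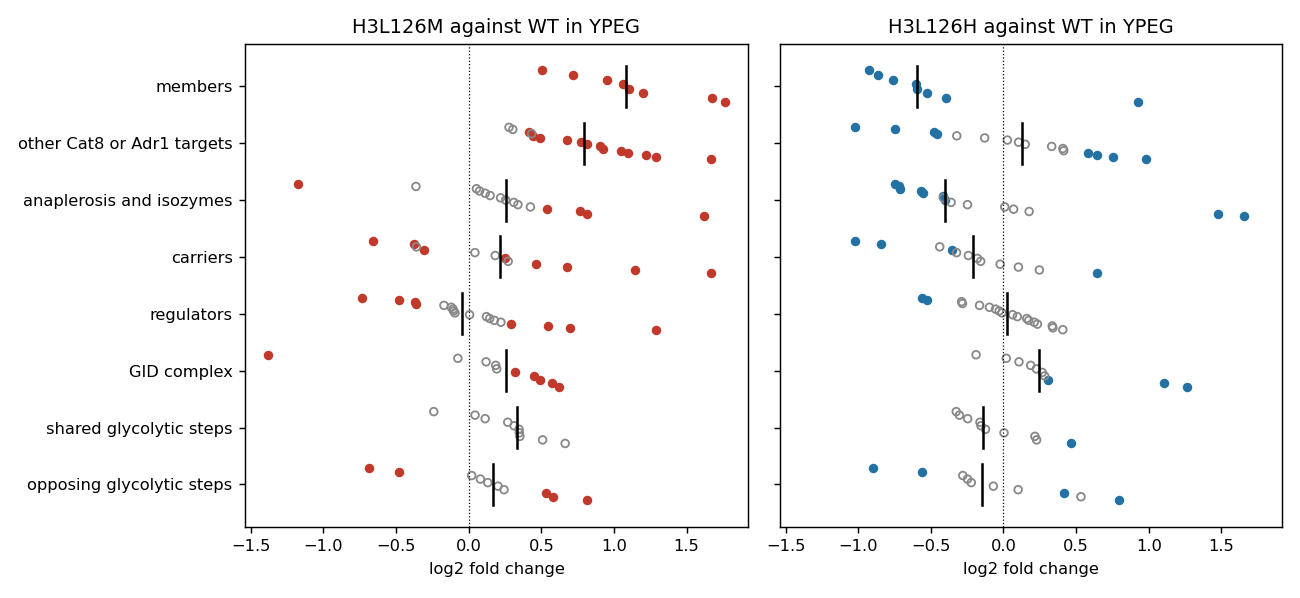
Log2 fold change against WT in YPEG of the 8 genes (members) and of genes of 7 lists, in H3L126M (left, red) and H3L126H (right, blue), with filled points for called genes, open points for the others and a bar at the median. The members and the other Cat8 or Adr1 targets lie furthest to the right in H3L126M (medians 1.08 and 0.80), and in H3L126H the members lie to the left (median -0.60) apart from *ICL2*.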

How the data were processed

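mRNA-seq libraries of 3 strains in 2 media, 4 per group, were grouped by the labels. The authors aligned reads with HISAT2 to sacCer3 and counted them per ORF with featureCounts (versions not given in the sources used here). They deposited raw counts, used for every value here, and counts divided by DESeq2 size factors, which were not used.

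The counts were scaled with TMM and tested with the two-sided quasi-likelihood test of edgeR 4.0.16 in R 4.3.3. Strains were compared in a fit of the 12 libraries of a medium, and media and interactions in a fit of all 24. Genes were kept with filterByExpr at a minimum count of 10, p values were adjusted over all genes tested (Benjamini-Hochberg), and the threshold for a call was 0.05. CPM are TMM-scaled, RPKM divide them by ORF length, and SE is the log2 fold change over the root of F. Alternatives were DESeq2 1.42.0, its size factors, all genes kept, a filter at 100 mean counts, the libraries compared alone, all 24 libraries together, an adjusted p below 0.01, a replicate block, chromosome medians subtracted (no test) and leaving out each library. The procedure was tested on simulated counts.

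The members and lists were chosen with earlier results of these data known. Named are the 8 members, their regulators CAT8, SIP4, ADR1 and MIG1, DAL7, PYC1, VID24 and FBP26. Also named are extreme called genes of the lists, though not every one, and up to 3 genes of highest Pearson's r per member. VID24 levels per library and the values of H3L126M library 3 in YPD were chosen after they were seen. Sequences come from the RefSeq R64 genome. Python 3.11.15 drew the figures with matplotlib 3.10.9.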

Additional observations from a re-analysis of the deposited data

Results flagged for a closer look

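In 48 groups of 4 libraries (8 genes in 6 groups), 2 held a library far from the other 3 by Dixon's criterion, where chance gives about 1 in 20. *PCK1* had 3.23 CPM in WT YPD library 4, the lowest of its group, and *FBP1* had 17.5 CPM in H3L126M YPD library 3, the highest of its group.

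The response to the medium differed between strains by the interaction test of edgeR for 6 pairs of gene and mutant. In H3L126M the interaction was 1.57 for *ICL1* and 2.09 for *MDH2*. In H3L126H it was -0.997 for *PCK1*, -1.31 for *FBP1*, -1.10 for *MLS1* and -2.08 for *SFC1*, all on the log2 scale.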

How the results depend on the processing

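In YPEG, 8 of the 8 genes were called for H3L126M against WT in all leave-one-out fits, and 7 to 8 for H3L126H against WT and for the mutants compared directly. The response to the medium was called for all 8 in each strain under every setting. In YPD, leaving out 1 library gave 1 to 3 called genes for H3L126M against WT, 2 to 3 for H3L126H against WT and 1 to 3 between the mutants. For the interactions it gave 2 to 5 in H3L126M and 3 to 4 in H3L126H. A mean of at least 100 counts gave 1 for H3L126H against WT in YPD. Under that filter only *ICL1*, *ICL2*, *MDH2* and *JEN1* were tested in YPD, so *SFC1* was not tested there. An adjusted p below 0.01 gave 1, 1 and 0 for the 3 comparisons in YPD in the same order, and 1 fit of all 24 libraries gave 1 between the mutants and called *PCK1* in H3L126M against WT in YPD (adjusted p = 0.0222). DESeq2 called *PCK1* there too (adjusted p = 0.0343) and in the interaction in H3L126M (0.0242). No called value changed sign. Between the mutants in YPD *ICL2*, which was not called, had -0.19 and 0.22 with the chromosome median subtracted, and the other changes of sign came from leaving out 1 library. Between the mutants in YPD, leaving out 1 library moved *FBP1* from -0.34 to 0.23 and *MLS1* from -0.0497 to 0.44, both negative without H3L126M YPD library 3. The interaction in H3L126M ranged from -0.45 to 0.39 for *SFC1*, positive without H3L126M YPD library 3 and, at 0.06 and 0.0612, without WT YPD library 1 or 2. For *ICL2* it ranged from -0.23 to 0.10 in H3L126M, positive without WT YPEG library 4, and from -0.014 to 0.35 in H3L126H, negative without WT YPD library 1. The cause was not tested. Subtracting chromosome medians gives no test and no count.

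The replicate numbers did not pair libraries, with a median correlation of deviations of -0.0036 over 60 same-numbered pairs and 6 of 24 libraries closest to their own number. With the replicate block the counts of called genes were 3 for H3L126M and 3 for H3L126H against WT in YPD, 2 between the mutants, 8 for each comparison in YPEG and of the media, and 2 and 4 for the interactions. The added gene was *MDH2* in H3L126H (adjusted p = 0.0272). Depth limits *SFC1* and *PCK1* in YPD, with 13 to 75 and 35 to 224 counts per library.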
